A study of Citrus maxima with 6 samples.

Results

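The RALF peptide genes of pomelo pulp were taken as all genes whose deposited annotation name contains "ralf-like" or "rapid alkalinization", and 10 of the 30123 genes in the table met this rule. All 10 were named ralf-like and 0 carried the second name. RALF peptides (rapid alkalinization factors) are small, secreted, cysteine-rich plant peptides cut from longer precursors, first known for raising the pH around cultured tobacco cells. In Arabidopsis they bind receptor kinases of the CrRLK1L family such as FERONIA, together with LORELEI-like co-receptors and leucine-rich repeat extensins of the cell wall, and they act on plasma membrane proton pumps, cell expansion and immune signalling. The rule itself reads only names, but the family was selected on the FPKM of 1 of its genes, Cg5g037110, which differed very strongly between the cultivars in these same libraries. Its values are therefore given as a description, with no test.

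The RNA came from the pulp (sarcocarp) of ripe fruits of 2 pomelo cultivars, the red-sarcocarp Citrus maxima Merr. var. Tubtim Siam and the white-sarcocarp Citrus maxima (Burm.) Osbeck, with 3 biological repeats each. Each repeat was a mix of pulp from several fruits, both cultivars were grown in orchards, and the sources used here name no treatment. Expression was deposited as FPKM, the number of sequenced fragments scaled by transcript length and library size, for each of the 6 libraries. In bulk pulp, fewer cells of a type and less RNA per cell cannot be told apart.

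The FPKM of all genes summed to between 812335 and 835575 per library. Across the 14158 genes that reached a mean of 1 FPKM in red pulp, white pulp or both, which are the tested genes below, Pearson's r of log2(FPKM + 0.1) was 0.958 to 0.964 within and 0.833 to 0.855 between cultivars. As a check of the tissue label, the 7 genes whose best Arabidopsis hits are MADS-box genes of flower and fruit identity summed to between 2370 and 2404 FPKM in red and between 1692 and 2089 FPKM in white libraries. Marker genes of photosynthetic tissue summed to between 449 and 480 FPKM in red and between 462 and 564 FPKM in white libraries. These sums mix opposite directions. Of the 9 genes, 2 had every red library above every white one, and 2 had the reverse. The 4 genes matching secondary wall cellulose synthases of xylem stayed at or below a sum of 0.06 FPKM in red and between 1.47 and 3.87 FPKM in white libraries. The 6 seed marker genes, which also differed between the cultivars, are given beside Cg5g037110.

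A few RALF genes carried nearly all of the RALF level of the pulp. Of the 10 genes, 4 reached the mean of 1 FPKM and were tested, and the other 6 were below it in both cultivars, with no library above 1.90 FPKM. The best hit was AT4G15800 (RALF33) for 5 members, AT4G14010 (RALF32) for 2, and AT4G13950 (RALF31), AT5G67070 (RALF34) and AT2G33775 (RALF19) for 1 each. A best hit does not establish that a pomelo gene has the role of the Arabidopsis gene, and how reads were divided among similar members was not examined, so the levels of single members are uncertain to that extent.

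**Figure D1:**
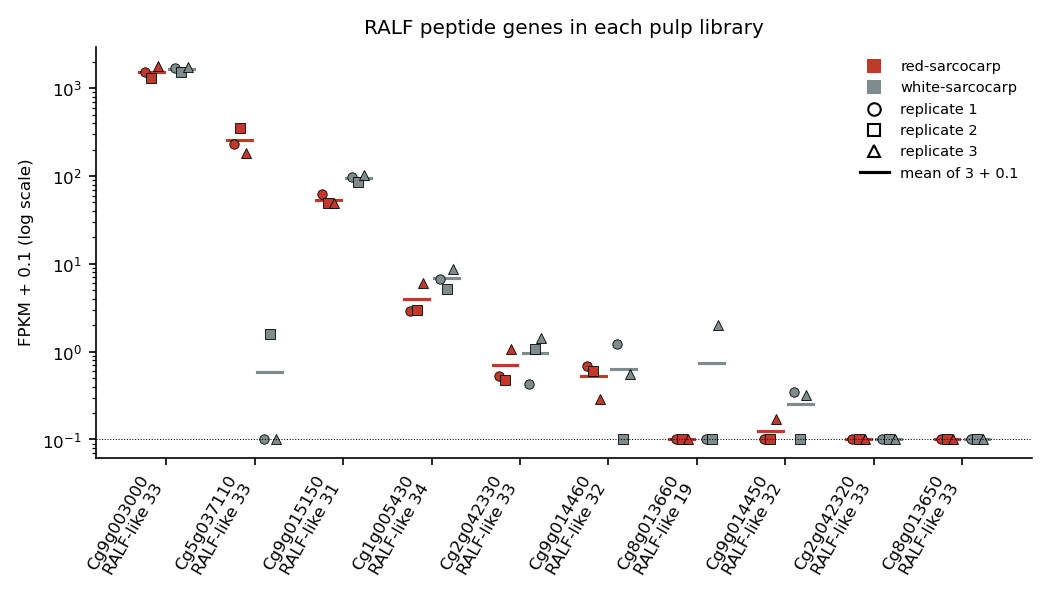
FPKM + 0.1 of the 10 RALF genes on a log axis, with 1 symbol per library (3 red- and 3 white-sarcocarp) and a line at each cultivar mean. The dotted line marks genes listed at 0, and Cg9g003000 lies at or above 1317 FPKM in all 6 libraries, while Cg5g037110 lies at or above 183 FPKM in the red libraries and at or below 1.48 FPKM in the white ones.

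The main RALF gene of the pulp was Cg9g003000, one of the 5 genes matching RALF33, a peptide perceived through FERONIA in Arabidopsis. It had 1523, 1317 and 1805 FPKM in red replicates 1 to 3 and 1711, 1514 and 1745 FPKM in white replicates 1 to 3. The 2 cultivars overlapped, and the gene stood 45th of all genes by mean FPKM in red and 33rd in white pulp. The means were 1549 ± 245 and 1657 ± 124 FPKM (SD, n = 3), a log2 difference of -0.11 (red minus white, on log2(FPKM + 0.1); standard error 0.14, limma, p adjusted over all tested genes by Benjamini-Hochberg = 0.563). The 95% interval of this difference ran from -0.44 to 0.22.

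Cg5g037110, also matched to RALF33, was present in red and nearly absent in white pulp. It had 229, 355 and 183 FPKM in red replicates 1 to 3, while white replicates 1 and 3 were listed at 0 and white replicate 2 at 1.48 FPKM. Every red library was thus far above every white library. The means were 256 ± 89.2 and 0.493 ± 0.854 FPKM (SD, n = 3). The gene stood 572nd by mean FPKM in red pulp and 14405th in white pulp. The fitted log2 difference of 9.94 depends on the constant added before the log, being 12.18 with 0.01, 8.28 with 0.5 and 7.51 with 1, and it ranged from 9.27 to 11.27 when single libraries were left out. The mean normalized count over the 6 libraries in the authors' table was 345, or 2.69 counts per unit of mean FPKM. The other 3 tested RALF genes, Cg9g003000, Cg9g015150 and Cg1g005430, had 9.48, 9.12 and 14.6, and the median over the tested genes was 31.0. Counts and FPKM came from separate tools (featureCounts and RSEM), and the source of the low ratio of Cg5g037110 was not tested.

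Within the red cultivar, Cg5g037110 varied more than most genes. Its coefficient of variation over the 3 red libraries was 34.9%, against a median of 11.6% over the tested genes, and 11.3% of the tested genes varied more. The main gene Cg9g003000 had 15.8% in red and 7.51% in white pulp. The libraries also differed in seed transcripts. The 6 genes matching cruciferin seed storage proteins and oleosins of Arabidopsis summed to 5.81, 5.40 and 25.5 FPKM in red replicates 1 to 3 and to 0.0900, 0.250 and 0.190 FPKM in white replicates 1 to 3, and 4 of the 6 were listed at 0 in all white libraries. Red replicate 3 had the highest seed sum and the lowest red value of Cg5g037110. Red replicates 1 and 2 had similar seed sums, and Cg5g037110 was higher in replicate 2. The part of seed transcripts in the difference of Cg5g037110 was not tested, and the order of 3 libraries cannot decide it.

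**Figure D2:**
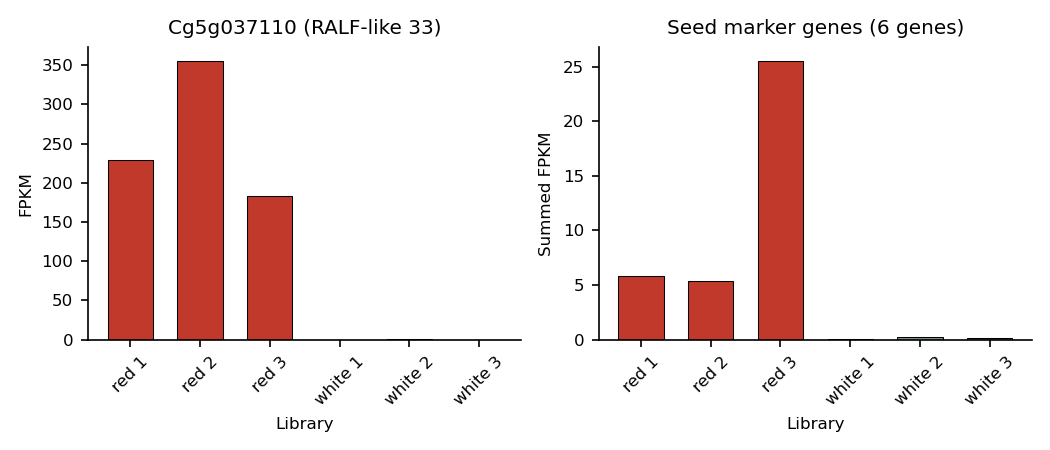
Left, FPKM of Cg5g037110 in each library, and right, summed FPKM of the 6 seed marker genes in the same libraries (red bars for red-sarcocarp and grey for white-sarcocarp pomelo, both axes from 0). Both are higher in the red libraries. The highest value of Cg5g037110 is in red replicate 2, with 355 FPKM, and the highest seed sum is in red replicate 3, with 25.5 FPKM.

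Cg9g015150, matched to RALF31, was the member with a consistent lower level in red pulp. It had 62.2, 48.7 and 49.5 FPKM in the red and 97.3, 86.2 and 103 FPKM in the white replicates 1 to 3, and the cultivars did not overlap. The white mean of 95.6 ± 8.61 FPKM was 1.79 times the red mean of 53.5 ± 7.55 FPKM (SD, n = 3). The log2 difference of -0.84 (standard error 0.12, adjusted p = 0.00159 from limma) had a 95% interval from -1.12 to -0.56 and was short of the fold threshold of 2 on the log2 scale that the study used with an adjusted p of at most 0.01. Replicates that do not overlap were seen in 57.7% of the tested genes.

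Cg1g005430 was matched to RALF34, which in Arabidopsis is a ligand of the receptor kinase THESEUS1. It had 2.80, 2.88 and 6.02 FPKM in the red and 6.61, 5.03 and 8.72 FPKM in the white replicates 1 to 3. Red replicate 3 was above white replicate 2, so the cultivars overlapped. The log2 difference was -0.84 (standard error 0.34, 95% interval -1.63 to -0.05), with an adjusted p of 0.0794 from limma.

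The 6 weakly expressed members were near or at 0 in both cultivars. Cg2g042330, another match to RALF33, had 0.430, 0.380 and 0.980 FPKM in the red and 0.330, 0.970 and 1.32 FPKM in the white libraries. Cg9g014460, a match to RALF32, lay between 0.190 and 0.580 FPKM in red and between 0 and 1.13 FPKM in white libraries. Cg9g014450, the other match to RALF32 and the gene with the preceding identifier, did not exceed 0.250 FPKM in any library. Cg8g013660 was matched to RALF19, which acts in pollen tubes in Arabidopsis, and was listed at 0 in 5 libraries and at 1.90 FPKM in white replicate 3, with a mean normalized count of 1.56 in the authors' table. Cg2g042320 and Cg8g013650, both matched to RALF33, were listed at 0 in all 6 libraries and had a mean normalized count of 0 there. None of these 6 was tested, and no fold change is given for them.

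Cg5g037110, for which the family was chosen, was not judged by the thresholds of the study. Of the other 3 tested members, 0 were past both thresholds, and nothing is read from this count. Over all 14158 tested genes, 6.76% were past both thresholds, 3.11% higher and 3.65% lower in red. Of the other 3 tested members, only Cg9g015150 was past the adjusted p alone, and 27.5% of all tested genes were past it, 13.4% higher and 14.1% lower in red. For 7 of the 10 members the white mean was above the red mean, but these include untested members near 0. The share of all genes in this direction was not counted, so no lean of the family is read from it. Only Cg9g015150 among them had replicates that did not overlap, which 57.7% of all tested genes had in either direction.

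Among the 4 tested members, the place of Cg5g037110 set the order apart between the cultivars. In red pulp Cg9g003000 was followed by Cg5g037110, at a 6.05-fold lower mean FPKM, then by Cg9g015150 and Cg1g005430, and no library of one of these 4 genes overlapped the libraries of the next. In white pulp Cg9g003000 was followed directly by Cg9g015150, at a 17.3-fold lower mean FPKM, and then by Cg1g005430. Next came Cg2g042330 in both cultivars, whose values overlapped those of Cg9g014460. In white pulp the values of Cg5g037110 and Cg8g013660 overlapped those of both, while in red pulp Cg8g013660 was listed at 0. FPKM is a level per length of transcript, so these are comparisons of levels between genes and not of read numbers.

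Summed over the 10 genes, the RALF level did not separate the cultivars. The sums were 1819, 1725 and 2045 FPKM in the red and 1817, 1608 and 1860 FPKM in the white replicates 1 to 3, and the cultivars overlapped. Cg9g003000 made up 83.8%, 76.4% and 88.3% of the sum in the red libraries and between 93.8% and 94.2% in the white libraries. Cg5g037110 contributed 12.6%, 20.6% and 8.94% in the red libraries and at most 0.0920% in the white ones. Without Cg5g037110 the sums were 1607 ± 246 FPKM in red and 1761 ± 136 FPKM in white pulp (SD, n = 3), a difference smaller than the spread among the red libraries.

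**Figure D3:**
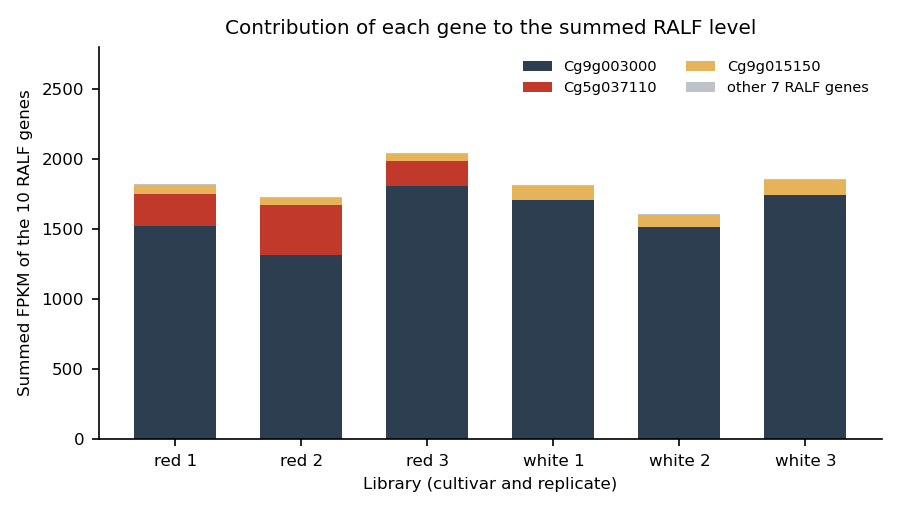
Summed FPKM of the 10 RALF genes in each library, stacked by gene, with the axis starting at 0. Cg9g003000 forms the largest block in all 6 libraries, and the block of Cg5g037110 is visible in the 3 red libraries, where it makes up 8.94% to 20.6% of the sum.

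The rest of the RALF pathway was followed through 53 Arabidopsis loci for receptors, co-receptors, wall proteins, precursor processing and downstream steps. Of these, 32 were the best hit of at least 1 pomelo gene, giving 63 genes, of which 21 were listed at 0 in all libraries and 29 were tested. In the fit over all tested genes 3 of the 29 were past both thresholds, all higher in red pulp, and 0 were lower, against 3.11% and 3.65% of all tested genes. The list was chosen with earlier results of these data known, and 2 of the 3 genes matched the same Arabidopsis locus. Nothing about the pathway is therefore read from this count. The median log2 difference of the 29 genes was 0.12, against 0.02 over all tested genes.

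Among the 10 tested receptor genes of the CrRLK1L family, 1 was past both thresholds, a weakly expressed match to FERONIA. Over all tested genes 6.76% were past both, and nothing is read from the receptor count. FERONIA is the receptor kinase that perceives several RALF peptides in Arabidopsis. It was the best hit of 10 pomelo genes, of which only Cg6g010840 was strongly expressed, with 366, 290 and 390.5 FPKM in the red and 382, 365 and 409 FPKM in the white replicates 1 to 3. These overlapped, and the log2 difference was -0.15 (standard error 0.12, 95% interval -0.45 to 0.14, adjusted p = 0.346 from limma). Cg6g017300, a second match to FERONIA, rose from 0.370, 0.300 and 0.560 FPKM in the white to 5.08, 4.88 and 3.34 FPKM in the red replicates 1 to 3. All red values were above all white values, with a log2 difference of 3.16 (standard error 0.31, limma adjusted p = 0.000359). The gene was tested only through its red mean of 4.43 FPKM, the white mean being 0.41 FPKM. Nothing is therefore read from its adjusted p. When 1 instead of 0.1 was added to the FPKM, the difference was 1.93 and no longer reached the fold threshold.

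No other receptor gene reached the fold threshold, and those named next were singled out after their values were seen. Cg2g021500, matched to THESEUS1, was lower in red pulp, with 26.0 ± 0.675 against 55.8 ± 10.2 FPKM (SD, n = 3) and a log2 difference of -1.08 (adjusted p = 0.000800 from limma). Cg8g021470, matched to HERCULES1, a growth-related kinase of the same family, was higher, with 177 ± 24.9 against 104 ± 15.6 FPKM (SD, n = 3) and a log2 difference of 0.76 (adjusted p = 0.00507 from limma). The other match to HERCULES1, Cg7g005610, was on the opposite side, with 43.9 ± 6.61 FPKM in red against 61.4 ± 4.51 FPKM in white pulp (SD, n = 3), replicates that did not overlap and a log2 difference of -0.49 (adjusted p = 0.0164 from limma). The adjusted p of Cg8g021470 ranged from 0.00345 to 0.0153 over 15 alternative settings and stayed at or below 0.01 in 9 of them. The matches to ANXUR1 and BUPS1, RALF receptors of pollen tubes in Arabidopsis, were listed at 0 in all libraries.

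The tested co-receptor gene was lower in red pulp at the adjusted p, and none of the 3 wall anchor genes and the 1 processing gene tested was past it. Over all tested genes 27.5% were past it, 14.1% lower in red, and nothing is read from these counts. Cg4g017230, matched to LLG1, the GPI-anchored partner of FERONIA in Arabidopsis, had 151, 150 and 140 FPKM in the red and 340, 261 and 319 FPKM in the white replicates 1 to 3. The cultivars did not overlap, and the log2 difference of -1.05 (standard error 0.11, 95% interval -1.31 to -0.79, adjusted p = 0.000445 from limma) was short of the fold threshold. Cg4g008420, matched to the leucine-rich repeat extensin LRX4, was the most abundant wall anchor gene, at 409 ± 78.0 FPKM in red against 451 ± 7.18 FPKM in white pulp (SD, n = 3), a log2 difference of -0.16 with a 95% interval from -0.48 to 0.16. Cg9g019450, matched to the SITE-1 protease that cleaves RALF precursors in Arabidopsis, had 9.54 ± 0.431 and 10.6 ± 0.609 FPKM (SD, n = 3), with an interval from -0.39 to 0.09 on the log2 scale.

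**Figure D4:**
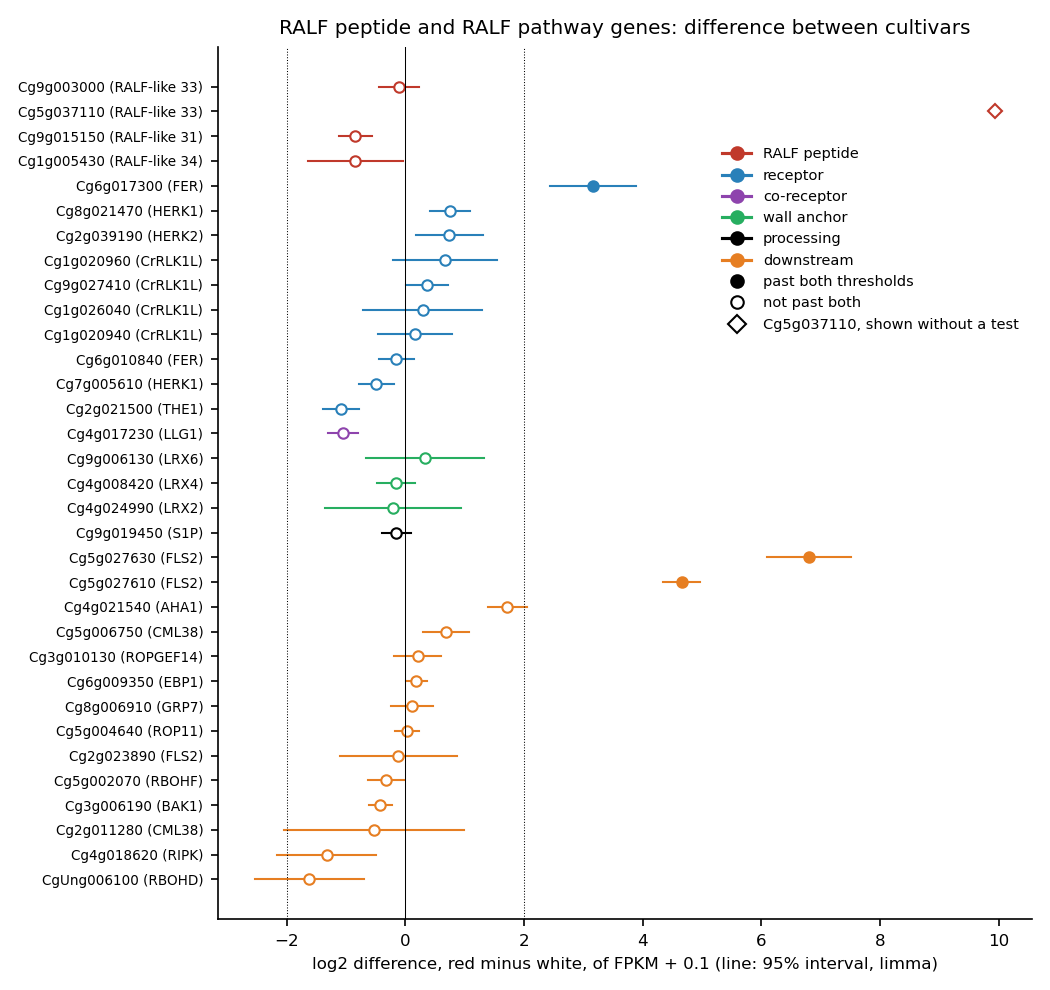
Log2 difference (red minus white, on FPKM + 0.1) of the 4 tested RALF genes and the 29 tested pathway genes, coloured by role, with the 95% interval from limma as a line and dotted lines at the fold threshold of 2 in each direction. Filled circles mark the 3 pathway genes past both thresholds, Cg6g017300, Cg5g027610 and Cg5g027630, and the diamond marks Cg5g037110, shown without an interval or a test.

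Of the 14 tested downstream genes 2 were past both thresholds, against 6.76% of all tested genes, and nothing is read from this count. Both were matches to FLS2, the flagellin receptor kinase. In Arabidopsis its complex with BAK1 is scaffolded by FERONIA and restrained by RALF23. FLS2 was the best hit of 9 pomelo genes, and a best hit within the large family of leucine-rich repeat kinases does not identify a flagellin receptor. Cg5g027610 had 31.2, 30.8 and 25.9 FPKM in the red and 1.01, 1.09 and 1.09 FPKM in the white replicates 1 to 3, and rose by 4.66 on the log2 scale (standard error 0.13, adjusted p = 4.62e-06 from limma). Cg5g027630 had 13.2, 11.1 and 14.1 FPKM in the red libraries, while white replicates 1 and 2 were listed at 0 and white replicate 3 at 0.0500 FPKM (adjusted p = 1.76e-05 from limma). Its fitted log2 difference depended on the added constant, at 6.81 with 0.1 and 3.75 with 1. Only its red mean of 12.8 FPKM brought the gene among the tested ones, the white mean being 0.0167 FPKM. Nothing is therefore read from its adjusted p. Another tested match to FLS2, Cg2g023890, had means of 1.29 FPKM in red and 1.37 FPKM in white pulp. Its replicates overlapped, with a log2 difference of -0.12 (adjusted p = 0.841 from limma). The partner kinase gene Cg3g006190, matched to BAK1, stood at 34.1 ± 2.35 FPKM in red against 45.6 ± 0.929 FPKM in white pulp (SD, n = 3), a log2 difference of -0.42 (adjusted p = 0.00530 from limma) whose adjusted p ranged from 0.00520 to 0.0218 over the alternative settings.

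Cg4g021540, matched to the plasma membrane proton pump AHA1, had 134, 131 and 166 FPKM in the red and 40.6, 38.9 and 51.6 FPKM in the white replicates 1 to 3. Proton pumps of this type are the enzymes whose inhibition by RALF1 raises the external pH in Arabidopsis. The cultivars did not overlap, and the log2 difference of 1.72 (standard error 0.14, 95% interval 1.39 to 2.04, adjusted p = 0.000178 from limma) was below the fold threshold. This gene and Cg3g006190 were singled out after their values were seen. The most abundant downstream gene, Cg8g006910, matched to the RNA-binding protein GRP7, stood at 1749 ± 313 FPKM in red against 1602 ± 140 FPKM in white pulp (SD, n = 3), a log2 difference of 0.12 with a 95% interval from -0.24 to 0.47.

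The genes whose pattern was most like that of Cg5g037110 were sought by the distance between log2(FPKM + 0.1) values over the 6 libraries among all tested genes. The nearest was Cg2g009220, annotated as a Mo25 family protein, at a distance of 4.61. It had 52.7, 78.2 and 36.2 FPKM in red replicates 1 to 3 and 0, 0.670 and 0.410 FPKM in white replicates 1 to 3. The next were Cg2g038130, annotated as a zinc transporter 10 precursor, at 5.51, Cg2g044480, which has no annotation, at 5.78, Cg4g001360, with the best hit AT4G31830, at 5.83, and Cg2g020510, annotated as a RIN4 family protein, at 5.87. Their mean FPKM in red pulp ran from 26.3 for Cg2g044480 to 73.8 for Cg2g038130, and in white pulp none exceeded the 1.57 FPKM of Cg4g001360. They were chosen for this pattern, so it is given without a test. None came close in level, since Cg5g037110 had 256 FPKM in red pulp.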

How the data were processed

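RNA of ripe pulp was sequenced by the authors in 6 libraries, 3 of each cultivar. According to the methods of the paper and the submitters' processing notes, Trimmomatic was used for trimming and STAR 2.7.1a for mapping against the published C. maxima genome assembly. The authors deposited FPKM obtained with RSEM 1.3.1, rounded to 2 decimals. Beside these stands the mean over the libraries of counts from featureCounts 2.0.1 after DESeq2 normalization, a deposited signal used here as the authors' mean. The deposited columns of the authors' comparison (fold changes, test statistics and p-values) were not used. The number of FPKM columns left out was 0.

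Genes reaching a mean of 1 FPKM in either cultivar were compared on log2(FPKM + 0.1), a scale that understates the change of low genes, with limma 3.58.1 in R 4.3.3 (empirical Bayes with a mean-variance trend, cultivar as the only term). The fit was tested on simulated data. Summaries were made in Python 3.11.15. The depth of single libraries was not used, so no counting intervals are given and precision rests on the 3 replicates. A value of 0 is given as listed, since the authors' mean normalized count was above 0 for 2154 genes with an FPKM of 0 throughout. Libraries were grouped by their labels, which give no batch.

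Members and lists were chosen with earlier results of these data known. Named were every RALF gene, the pathway genes past the thresholds, the most abundant gene of each role and the 5 genes nearest to Cg5g037110. Other genes were named after their values were seen. Alternatives were other pseudocounts, filters and normalizations, no trend, a replicate block and leaving out each library. No reference sequence was used.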

Additional observations from a re-analysis of the deposited data

How the results depend on the processing

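The number of RALF pathway genes past both thresholds was 3 in 14 of the 15 alternative settings and 2 when the pseudocount was 1. None of the tested RALF genes other than Cg5g037110, which was not judged because the family was selected on it, was past both thresholds in any of the 15 settings. Over all tested genes the number past both thresholds fell from 957 to 530 with a pseudocount of 1, with 250 higher and 280 lower, and ranged from 768 to 916 with each library left out in turn. Of the pathway genes past both thresholds, Cg6g017300 fell short of the fold threshold with a pseudocount of 1. The genes nearest to Cg5g037110 were chosen for their pattern and, like Cg5g037110, were not judged by the thresholds. The difference of Cg9g015150 kept its sign in all 15 settings, with an adjusted p from 0.00150 to 0.00752 (limma), while that of Cg9g003000, never past the threshold, ranged from -0.22 to 0.00. The replicate numbers are not known to pair the libraries, and deviations of same-numbered libraries correlated at 0.00, 0.03 and -0.04 across genes. With a replicate block 804 genes were past both thresholds, 3 of them pathway genes. No scaling moved the median log2 difference of all tested genes by more than 0.1.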

Other observations

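The mean normalized counts of the authors' table, which come from featureCounts and not from RSEM as the FPKM do, gave another scale for the RALF genes. Cg9g003000 had 15198 and Cg9g015150 had 679.7, or 9.48 and 9.12 counts per unit of mean FPKM, and Cg1g005430 had 77.8, or 14.6 per unit. Cg5g037110 had 345, or 2.69 per unit, a ratio below which 2.28% of the tested genes fell. By mean normalized count over all 6 libraries Cg9g015150 was above Cg5g037110, while by mean FPKM in red pulp alone Cg5g037110 was 4.79-fold above Cg9g015150. The 4.79-fold value covers the red libraries only, and Cg5g037110 was nearly absent from the white ones. By mean FPKM over all 6 libraries Cg5g037110 was still above Cg9g015150. The order of these genes therefore differed between the scales over the same libraries. The difference between the scales was not tested further. Of the weakly expressed members, Cg2g042330 had a mean normalized count of 4.98, Cg9g014460 of 3.76 and Cg9g014450 of 0.993.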
